A study of Oryzias latipes with 50 samples.

Results

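The tachykinin, VIP and PACAP peptide genes of the medaka (Oryzias latipes) were followed in the brain over 2 years. They are tac1 and tac3, which encode tachykinin precursors, vip, which encodes the precursor of vasoactive intestinal peptide (VIP), and adcyap1, which encodes pituitary adenylate cyclase-activating polypeptide (PACAP). They were found by gene symbol or by the description given in the expression table, leaving out 6 rows described as receptors, and are 4 of the 23455 genes listed. The rule itself used no expression value, though these genes were chosen with earlier results of these data known. Each library came from a brain block that holds the hypothalamus and pituitary together with the ventral telencephalon, dissected at about 8 pm from fish living outdoors at Okazaki, Japan, in natural light and temperature. Sampling ran monthly over 25 dates between September 2015 and September 2017. Each date gave 2 libraries, 50 altogether, and the date was the only condition that differed in the labels. The labels do not give strain, age or sex, nor the number of fish behind a library. The p-values below therefore rest on the scatter of date means and not on a known number of fish. That scatter also holds differences between the libraries of a date. The study asked how each gene is expressed through the seasons.

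Tachykinins are short peptides that act on G protein-coupled receptors linked mainly to phospholipase C. The tac1 precursor yields substance P and neurokinin A, and the tac3 precursor yields neurokinin B, which in mammals is made with kisspeptin and dynorphin by hypothalamic neurons that drive gonadotropin-releasing hormone. VIP and PACAP belong to the secretin and glucagon family and act on related receptors that raise cyclic AMP. In mammals VIP couples the neurons of the circadian clock, in birds it releases prolactin, and PACAP was first isolated as a hypothalamic peptide that raises cyclic AMP in pituitary cells.

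Values are the deposited FPKM (fragments counted relative to transcript length and library size), which summed to between 278558 and 341666 per library. Read totals were not used here, so no counting error is given. Libraries that shared a date had a median r of 0.988 with each other on the log2 scale, against 0.971 for libraries of different dates, and no pair of libraries was identical. The pituitary hormone genes gh and prl1 averaged 1006 and 2150 FPKM, and the hypothalamic peptide genes oxt and pmch averaged 87.6 and 82.7 FPKM. Of the ventral telencephalic list, gad2, gad1, dlx1, dlx5 and dlx2 averaged 136, 41.4, 23.4, 22.1 and 11.1 FPKM. Of 8 hypothalamic markers sought 4 were found by symbol, the others being agrp and hcrt at 9.83 and 5.27 FPKM. Markers from each of these lists were thus detected, though not every marker sought.

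All 4 peptide genes were detected in each of the 50 libraries and passed the filter of a mean of at least 1 FPKM, which kept 16493 genes. On the length-scaled FPKM scale tac1 was the most abundant, with a mean of 39.2 FPKM and a range over libraries of 20.2 to 75.5. Then came vip with a mean of 25.8 FPKM (9.55 to 52.3), adcyap1 with 24.7 FPKM (17.1 to 35.7) and tac3 with 14.6 FPKM (5.56 to 32.0). The libraries of a date differed by a median of 0.12 (adcyap1) to 0.21 (vip) in log2(FPKM + 1), while the SD between dates was 0.48 for tac1, 0.57 for tac3, 0.61 for vip and 0.24 for adcyap1. The widest gap within a date was 0.90 for tac3 in September 2015, where the libraries held 12.8 and 6.41 FPKM.

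**Figure D1:**
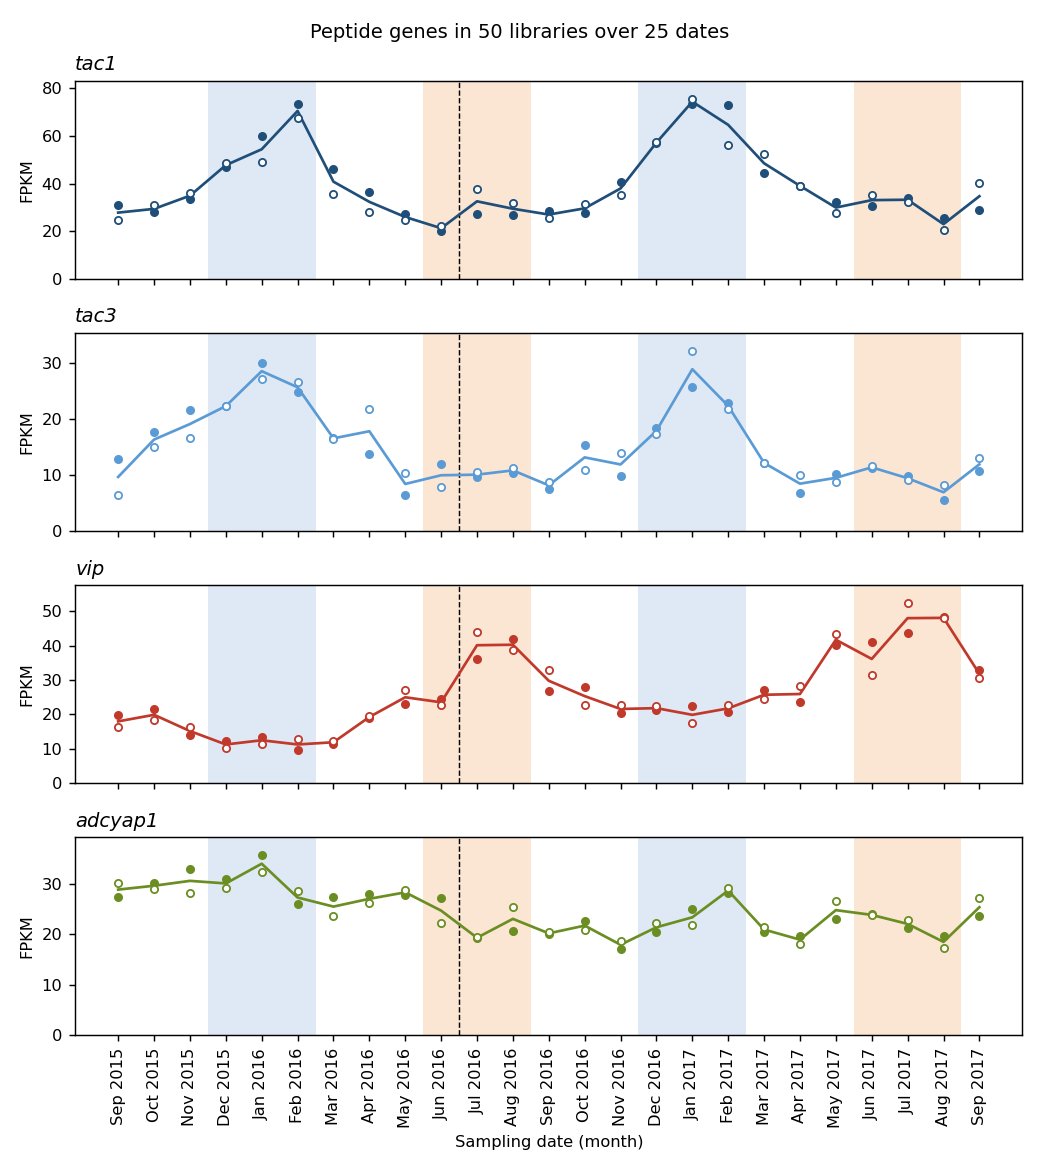
FPKM of tac1, tac3, vip and adcyap1 (vertical axes) in each library by sampling date (horizontal axis), with filled circles for replicate 1, open circles for replicate 2 and a line through the date means. Blue bands mark December to February, orange bands June to August, and the dashed line the border before July 2016. tac1 and tac3 peak in both winters, vip peaks in both summers and stands higher after the dashed line, and adcyap1 stands lower after it.

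An annual wave of cosine and sine terms was fitted to the date means of log2(FPKM + 1) with limma. Calls were made at a Benjamini-Hochberg adjusted p under 0.05, adjusted across all 16493 genes. The tachykinin genes followed a winter wave and vip a summer wave, while adcyap1 followed none that passed. tac1 had a fitted range from trough to peak of 1.16 ± 0.14 (SE) on the log2 scale with its peak on 1 February (SE 6.92 days; adjusted p = 6.96e-07). tac3 had a range of 1.32 ± 0.18 and a peak on 21 January (SE 7.77 days; adjusted p = 4.32e-06). vip had a range of 1.33 ± 0.21 and a peak on 24 July (SE 9.03 days; adjusted p = 3.47e-05). adcyap1 had a range of 0.22 ± 0.13 (adjusted p = 0.334). The count of 3 of 4 stands beside 53.4% of all genes tested, so passing the threshold was common in this tissue. The fitted ranges of tac1, tac3 and vip lay at percentiles 94.6, 96.6 and 96.7 of the ranges of all genes tested. The annual wave took up 73.6% of the variance between dates for tac1, 67.9% for tac3, 60.7% for vip and 10.7% for adcyap1.

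tac1 was lowest at 47.7, median 61.0 and highest at 74.4 FPKM over the 6 dates of December to February, and 21.3, 31.0 and 33.2 FPKM over the 6 dates of June to August. For tac3 the winter values were 17.8, 23.9 and 28.8 FPKM and the summer values 6.90, 9.98 and 11.3 FPKM. For both tachykinin genes every summer date lay below every winter date. vip ran the other way, with 11.2, 16.2 and 21.8 FPKM in winter and 23.5, 40.2 and 48.0 FPKM in summer, every summer date above every winter date. In adcyap1 the winter values were 21.4, 28.0 and 34.0 FPKM and the summer values 18.5, 22.6 and 24.7 FPKM, with 2 of 6 summer dates below all winter dates. Of all genes tested, 16.9% had every summer date above and 14.1% every summer date below the winter dates.

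In the limma comparison of summer with winter all 4 passed, against 54.5% of all genes, of which 31.0% were higher and 23.5% lower in summer. Mean levels were 28.7 ± 5.35 FPKM in summer and 61.5 ± 10.2 FPKM in winter for tac1 (SD, n = 6 dates each), a log2 difference of -1.08 ± 0.14 (SE). tac3 averaged 9.73 ± 1.55 and 24.2 ± 4.23 FPKM, a difference of -1.23 ± 0.19, and vip 39.3 ± 9.09 and 16.4 ± 5.26 FPKM, a difference of 1.24 ± 0.24. The adjusted p-values were 1.71e-06, 8.94e-06 and 0.000122. More of the summer dates than of the winter dates came from July 2016 on, when vip was higher. Over the alternative settings, among them a change of level from July 2016, the vip difference ran from 0.966 to 1.285 and kept its call. The fall of adcyap1 was smaller, from 27.5 ± 4.58 in winter to 21.9 ± 2.50 FPKM in summer, a difference of -0.31 ± 0.13 (adjusted p = 0.0464). It lost the threshold when a change of level from July 2016 was allowed for (-0.19, adjusted p = 0.0757) and in the dates from July 2016 alone (-0.19, adjusted p = 0.242). Leaving out single libraries ended its call in 11 of 50 cases, with adjusted p up to 0.0722 without June 2016 replicate 2.

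Of the markers of brain regions and cell types, some differed between summer and winter, beside 23.5% of all genes lower in summer and 31.0% higher. Of 4 hypothalamic markers 3 were lower in summer, oxt by a log2 difference of -1.27, pmch by -1.03 and hcrt by -0.53, and their list summed to 224 to 315 FPKM over the winter dates and 85.4 to 175 over the summer dates. Of 7 tested pituitary hormone genes 3 were higher in summer (lhb 3.68, prl1 1.73, smtl 1.66), and that list summed to 2531 to 3648 FPKM in winter and 3464 to 9304 in summer. Pan-neuronal markers were higher in 3 of 4 cases, with sums of 650 to 824 FPKM in winter and 670 to 931 in summer, and no glial marker of 4 passed. Of 5 ventral telencephalic markers only gad2 passed, higher by 0.25 (sums of 198 to 240 FPKM in winter and 226 to 271 in summer). Mean dlx1 and dlx5 were also higher in summer, while gad1 (38.8 against 42.4 FPKM) and dlx2 (11.0 against 12.0) were lower. Of 4 dorsal telencephalic markers only neurod2 passed, lower by 0.51 (25.0 to 44.7 in winter and 24.1 to 39.4 in summer). Mean tbr1, eomes and emx2 were higher in summer (8.99 against 7.33, 5.12 against 3.47 and 1.27 against 0.96 FPKM). No hypothalamic, neuronal or glial marker was at 0 in any library, while prl was at 0 in 25 libraries. The part of these lists in the seasonal results was not tested. In a dissected block, fewer cells of a type and less RNA per cell cannot be told apart.

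The shape of the yearly curve was described by a 6-month wave on top of the annual wave. It passed for tac1 alone, with a range of 0.49 ± 0.11 (adjusted p = 0.0139 in limma), and for 8.55% of all genes tested. With both waves the fitted tac1 curve was highest on 31 January and lowest on 7 June, and the calendar months from May to October had means of only 26.2 to 32.9 FPKM. The variance accounted for rose from 73.6% to 86.8% for tac1, from 67.9% to 74.8% for tac3, from 60.7% to 62.9% for vip and from 10.7% to 11.2% for adcyap1. The 6-month wave of tac3 had a range of 0.42 ± 0.16 (adjusted p = 0.229), that of vip 0.25 ± 0.21 (adjusted p = 0.746) and that of adcyap1 0.05 ± 0.13 (adjusted p = 0.971). With both waves tac3 was highest on 19 January and lowest on 29 August, and vip highest on 27 July and lowest on 8 January.

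**Figure D2:**
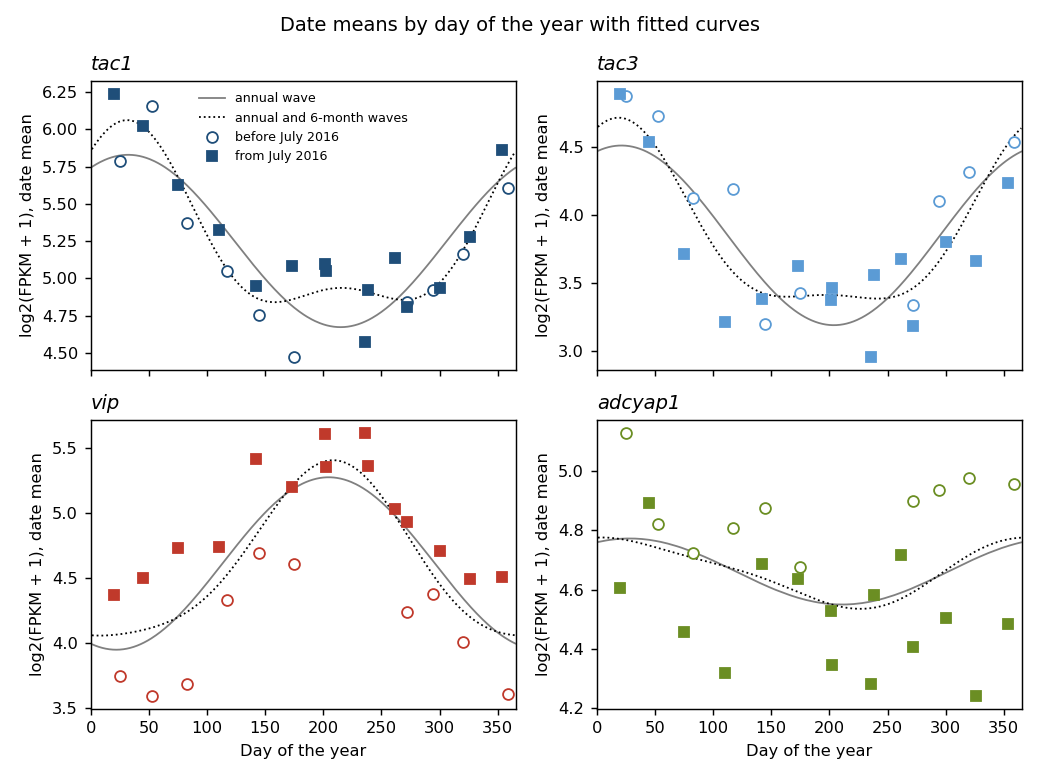
Date means of log2(FPKM + 1) for each peptide gene (vertical axes) against the day of the year (horizontal axes), with open circles for dates before July 2016, filled squares for dates from July 2016, a grey line for the annual wave and a dotted line for the annual and 6-month waves together. tac1 forms a narrow winter peak over a flat summer floor, the vip squares lie above its circles for most of the year, and most adcyap1 squares lie below its circles.

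By calendar month tac1 ran from 67.6 FPKM in February down through 64.4 in January, 52.5 in December and 44.7 in March to 26.2 FPKM in August, a ratio of 2.58. tac3 ran from 28.6 FPKM in January to 8.85 FPKM in August, a ratio of 3.24, with February (23.9) and December (20.0) next to January. vip was highest in August and July (44.1 and 44.0 FPKM) and lowest in January (16.2 FPKM), a ratio of 2.73. adcyap1 ran only from 28.7 FPKM in January to 20.7 FPKM in July, a ratio of 1.39. Each month had 2 dates (September 3), and the dates of neighbouring months in this order overlapped in 10 of 11 cases for tac1, 9 of 11 for tac3 and all 11 for vip and adcyap1. For tac3, January stood clear of February in both years. Most neighbours in the order thus did not differ beyond the spread between years.

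The order of the 4 peptide genes differed between dates. tac1 was the most abundant on 14 of 25 dates, vip on 7 and adcyap1 on 4, and tac3 was the least abundant on 18 dates and vip on the other 7. The 4 dates with adcyap1 highest, in September and October 2015 and May and June 2016, all came before July 2016, and the 7 with vip highest all came from then on. vip exceeded tac1 on 8 dates, and the ratio of vip to tac1 in FPKM ran from 0.159 in February 2016 to 2.09 in August 2017. Between the tachykinin genes the order was fixed, with tac1 above tac3 on all 25 dates by 1.80 to 4.64 times (median 2.90).

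The dates of August to October and of February to April have a like day length, shortening in the first and lengthening in the second. The direction of day length, natural temperature and the phase of the annual wave cannot be told apart in this contrast. tac1 was lower in August to October, with 23.0, 29.4 and 34.7 FPKM as the lowest, median and highest of 7 dates, against 32.3, 44.7 and 70.5 FPKM over 6 dates of February to April. The log2 difference was -0.72 ± 0.17 (adjusted p = 0.007 in limma), and the groups overlapped, since the lowest February to April date lay below the highest August to October date. tac3 differed by -0.57 ± 0.21 (adjusted p = 0.0573), vip by 0.63 ± 0.24 (adjusted p = 0.0558) and adcyap1 by -0.05 ± 0.14 (adjusted p = 0.811). The count of 1 of 4 stands beside 22.0% of all genes tested, 12.9% higher and 9.06% lower. That split, 2131 higher against 1495 lower, was 1802 against 1910 after median ratio scaling. The calls of tac3 and vip lay close to the threshold. tac3 passed after quantile normalization (adjusted p = 0.0411), and vip passed with a change of level from July 2016 in the fit (0.47, adjusted p = 0.0114) and without September 2015 (0.74, adjusted p = 0.029). Other settings left each of them uncalled, with adjusted p up to 0.332 for tac3 and 0.0854 for vip.

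The level of vip was higher in the second year than in the first, and adcyap1 was lower from July 2016 on. Comparing October 2016 to September 2017 with the 12 months before, with the calendar month as a block, vip differed by 0.55 ± 0.08 on the log2 scale (adjusted p = 0.0011 in limma) and was higher in all 12 months. Over all genes, 12.0% passed this comparison, 3.01% higher and 8.97% lower, and 0.546% were higher and 1.35% lower in all 12 months. The split of 496 higher and 1479 lower became 850 and 964 after quantile normalization and 811 and 997 after median ratio scaling. adcyap1 was lower in 9 of 12 months (-0.24 ± 0.08, adjusted p = 0.0729), tac1 was higher in 10 (0.17 ± 0.07, adjusted p = 0.122) and tac3 was lower in 8 (-0.22 ± 0.11, adjusted p = 0.185). Of all genes tested, 15.3% were lower in at least 10 of 12 months. The shares for these 3 counts of months were not computed, so the counts are a description alone.

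**Figure D3:**
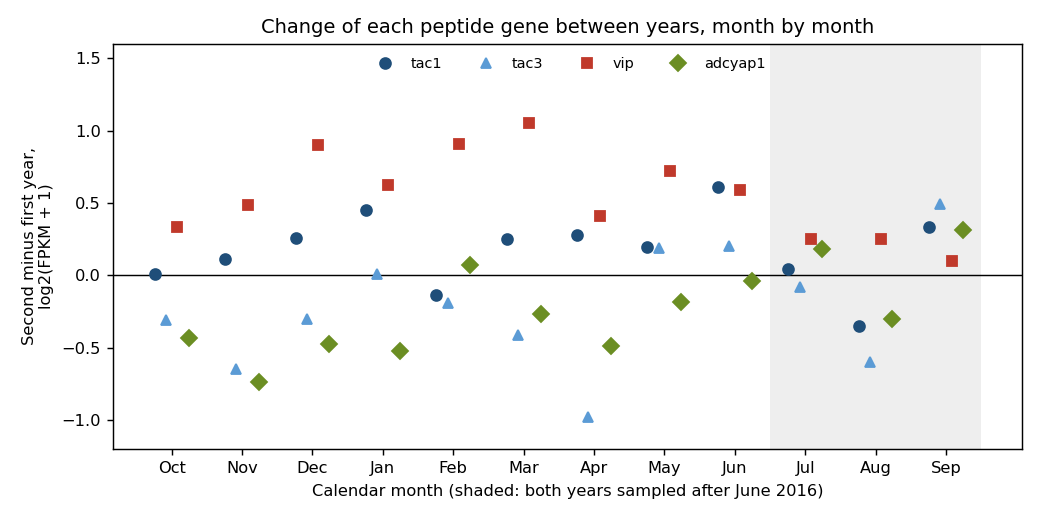
Second minus first year in log2(FPKM + 1) for each peptide gene (vertical axis) by calendar month (horizontal axis), from date means, with 1 point per gene and month. All 12 vip points lie above 0, from 0.10 in September to 1.05 in March, and in the shaded months, where both years were sampled after June 2016, the vip points lie at 0.25, 0.25 and 0.10.

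For 9 of these 12 months, October to June, the first-year date fell before July 2016 and the second-year date after it, and for July to September both fell after it. The second-year excess of vip averaged 0.67 ± 0.25 (SD) over the 9 months and 0.20 ± 0.09 over the other 3. For adcyap1 the second year minus the first averaged -0.34 ± 0.26 over the 9 months, 8 of them lower, and 0.06 ± 0.32 over the other 3. The difference between these sets of months was not tested, and the share of all genes lower in 8 of 9 months was not counted.

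A step from July 2016 was therefore fitted together with the annual wave over all 25 dates, since earlier results of these data had placed a change at that date in other genes. vip held 11.2, 16.5 and 25.0 FPKM as the lowest, median and highest of 10 dates before it and 19.9, 29.8 and 48.0 FPKM over 15 dates from it. adcyap1 held 24.7, 28.6 and 34.0 FPKM before and 17.9, 21.7 and 28.7 FPKM from July 2016. The periods overlapped for both genes. Each period is 1 run of consecutive dates, so the step is a single change in time, while the fit treats the dates as independent. The border was taken from earlier results of these data, and the adjusted p-values do not allow for that choice. With the season in the fit, vip was higher by 0.72 ± 0.07 (adjusted p = 1.14e-08 in limma) and adcyap1 lower by 0.35 ± 0.07 (adjusted p = 0.000428). tac1 was higher by 0.25 ± 0.09 (adjusted p = 0.0387), a call that ended in 9 of 50 fits without 1 library (adjusted p up to 0.0596, without September 2015 replicate 2), and tac3 differed by -0.21 ± 0.13 (adjusted p = 0.22). The count of 3 of 4 stands beside 29.1% of all genes tested, 7.44% higher and 21.6% lower. That split was 1227 higher and 3570 lower, but 2288 and 1937 after quantile normalization and 2100 and 2054 after median ratio scaling, and vip and adcyap1 kept their direction and call under both.

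Season by season, vip held 11.2, 12.5 and 11.2 FPKM on the dates of December 2015 to February 2016 and 21.8, 19.9 and 21.7 FPKM 1 year later. In June to August it held 23.5, 40.1 and 40.2 FPKM in 2016 and 36.1, 48.0 and 48.0 FPKM in 2017. The winters, of 3 dates each, did not overlap, while the summers did. The share of all genes with winters apart in this way was not counted, so this is a description alone. For adcyap1 the winter dates held 30.1, 34.0 and 27.3 FPKM in the first winter and 21.4, 23.4 and 28.7 FPKM in the second, which overlap.

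Markers of brain regions outside the labelled block also changed at the same date, when 21.6% of all genes were lower and 7.44% higher. Of 10 midbrain and hindbrain markers found 3 were tested, and all 3 fell. gnrh2 had a mean of 21.6 FPKM before July 2016 and 0.0617 from it, pax7 5.40 and 0.682, and zic1 41.7 and 29.7 FPKM. The others lay below the filter. Among them en1, pax2, hoxb1 and hoxb5 had lower means from July 2016. In contrast, egr2 (0.442 against 0.356 FPKM), en2 (0.116 against 0.104) and hoxb3 (0.0417 against 0.029) had higher ones. That list summed to 58.0 to 79.2 FPKM per date before and 26.2 to 35.5 from July 2016, and gnrh2 was at 0 in 25 libraries. The habenular marker gng8 fell from 5.42 to 0.143 FPKM, with list sums of 10.5 to 18.5 before and 4.40 to 8.84 after. The other habenular marker tested, kctd12, stood at -0.23 in log2 and did not pass (adjusted p = 0.0661 in limma). Of 4 dorsal telencephalic markers 3 fell (sums of 33.9 to 50.8 before and 24.1 to 46.0 after), as did 3 of 4 glial ones (712 to 1331 before and 284 to 802 after). Of 5 ventral telencephalic markers 3 rose, dlx5 by 0.57, dlx2 by 0.43 and dlx1 by 0.33 (sums of 198 to 246 before and 219 to 276 after), as did 3 of 7 pituitary genes (2417 to 5242 before and 3139 to 9304 after). Of 4 hypothalamic markers only pmch passed, higher by 1.03 (list sums of 85.4 to 268 before and 102 to 336 after). Mean oxt, hcrt and agrp were lower from July 2016 (71.6 against 112, 4.64 against 6.20 and 9.75 against 9.96 FPKM). Of 4 neuronal markers only snap25 passed, lower by 0.26 (753 to 931 before and 650 to 844 after). Mean elavl3 was higher (31.5 against 28.1 FPKM), elavl4 lower (28.9 against 30.5) and syt1 at 119 in both periods. The part of these markers in the changes of vip and adcyap1 was not tested, and a change in the fish and a change in the tissue taken cannot be told apart here.

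The seasonal curve of each gene was also fitted in each year alone. The tachykinin peaks repeated, for tac1 on 29 January in the first year (range 1.13) and 4 February in the second (1.17), and for tac3 on 23 January (1.48) and 15 January (1.16). The vip peak fell on 3 August in the first year (1.70) and 16 July in the second (1.12). These 6 fits all passed in limma, beside 41.8% of genes in the first year and 41.1% in the second. adcyap1 had a range of 0.47 and a peak on 24 January in the first year (adjusted p = 0.036) and a range of 0.12 in the second (adjusted p = 0.817). In the first year only the July to September dates came from July 2016 on, while all second-year dates did. The step from July 2016, 0.72 for vip and -0.35 for adcyap1 in log2, thus lay inside the first year alone. Its part in the first-year ranges and in their difference from the second year was not tested. In the test of the difference between the annual waves of the years, none of the peptide genes passed in limma, beside 0.0303% of all genes. Of the 4, 1 had an unadjusted p under 0.05. It was vip, with an adjusted p = 0.158 (unadjusted 0.00818). In simulated data with 200 changed genes this test recovered 54.5% of genes changed 2-fold and 0% of genes changed 1.5-fold. The lack of a call therefore does not show that the curves of the years were alike.

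Related genes in the table were described beside the peptide genes. LOC101165591, described in the table as glucagon family neuropeptides and assigned there to the PACAP orthologue, was the most abundant relative with a mean of 136 FPKM. It held 159 ± 12.7 FPKM in winter and 117 ± 11.2 FPKM in summer (SD, n = 6 dates each). Every summer date of this gene lay below every winter date, beside 14.1% of all genes. The log2 difference was -0.44 ± 0.10 (adjusted p = 0.000642 in limma), and its annual wave peaked on 31 January with a range of 0.49 ± 0.09 (adjusted p = 0.000129, but 0.101 in the dates to June 2016 alone). From July 2016 it was lower by 0.21 ± 0.05 (adjusted p = 0.00147), a call that ended after quantile normalization (-0.08, adjusted p = 0.277).

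The same column of the table assigns 3 undescribed genes to tachykinin orthologues. The column is loose, since it also gives receptor orthologues to unrelated genes, and these genes were singled out after the table was seen. LOC105356520 averaged 8.15 FPKM, with an annual wave of 0.91 ± 0.24 that peaked on 28 December (adjusted p = 0.00754 in limma). It averaged 12.3 ± 5.50 FPKM in winter and 6.91 ± 2.31 FPKM in summer (adjusted p = 0.0148, and 0.0718 for July to September against January to March), and was higher from July 2016 by 0.67 ± 0.12 (adjusted p = 0.000169). LOC110015528 averaged 15.3 FPKM and was higher in summer, 19.7 ± 6.58 against 13.1 ± 2.14 FPKM (0.49 ± 0.19, adjusted p = 0.0325), a call that ended after median ratio scaling (adjusted p = 0.0563). LOC101166416 averaged 0.383 FPKM and was below the filter. Of the other secretin family genes, ghrh, which encodes growth hormone-releasing hormone, averaged 3.02 FPKM with no annual wave that passed (adjusted p = 0.458) and rose by 0.45 ± 0.11 from July 2016 (adjusted p = 0.00429). The glucagon genes LOC101155154 and LOC101166856 averaged 0.201 and 0.113 FPKM and were not tested.

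Of 14 receptor genes found for these peptides, 11 passed the filter. In the annual wave 5 of the 11 passed, beside 53.4% of all genes, and in summer against winter 4 were higher and 1 was lower, beside 31.0% and 23.5% of all genes. The median summer difference was 0.08, against 0.06 over all genes tested. The most abundant were both PACAP receptors. LOC101163161, a PACAP type I receptor, averaged 92.5 FPKM, 98.7 ± 8.45 in summer and 81.7 ± 4.14 in winter, a log2 difference of 0.27 ± 0.06 (adjusted p = 0.000525 in limma), with its annual peak on 31 August. LOC101159384, described by the same name, averaged 46.0 FPKM and ran the other way, 38.5 ± 5.37 FPKM in summer and 53.9 ± 4.07 in winter (-0.48 ± 0.09, adjusted p = 0.000139), with its annual peak on 14 January. In the first, 5 of 6 summer dates lay above every winter date, and in the second 5 of 6 lay below. The share of all genes with 5 of 6 summer dates apart was not counted, so this is a description alone.

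The VIP receptor LOC101169670 averaged only 1.09 FPKM, 1.48 ± 0.35 in summer and 0.668 ± 0.16 in winter (0.56 ± 0.16, adjusted p = 0.00466 in limma). Its annual peak fell on 20 July, and every summer date lay above every winter date, beside 16.9% of all genes. In the dates from July 2016 alone its summer call ended (adjusted p = 0.0644). The VIP receptor LOC101155464 averaged 5.06 FPKM, was higher in summer by 0.47 ± 0.14 (adjusted p = 0.00708, but 0.229 for July to September against January to March) and had no annual wave that passed (adjusted p = 0.26). LOC101155153, another VIP receptor, averaged 8.59 FPKM with a small annual wave of 0.21 ± 0.07 that peaked on 16 May (adjusted p = 0.0482, but 0.088 after median ratio scaling). LOC101161752 averaged 2.16 FPKM with an annual wave of 0.29 ± 0.09 that peaked on 18 December (adjusted p = 0.0194, but 0.344 in the dates from July 2016 alone). LOC101168197 (9.84 FPKM) and LOC101159138 (1.67 FPKM), described as PACAP type I receptors, had no seasonal result that passed (adjusted p = 0.678 and 0.748 for summer against winter). LOC101170814, described as VIP receptor 2, averaged 0.521 FPKM, below the filter.

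Among tachykinin receptors tacr1a, the receptor preferred by substance P, averaged 9.88 FPKM, 11.0 ± 1.30 in summer and 9.24 ± 1.07 in winter (0.23 ± 0.10, adjusted p = 0.046 in limma). That call lay at the threshold and ended after quantile normalization (adjusted p = 0.126). The receptor preferred by neurokinin A, tacr2, averaged 14.3 FPKM with a summer difference of -0.02 ± 0.09 (adjusted p = 0.838). The receptor preferred by neurokinin B, tacr3, averaged 2.92 FPKM with a difference of 0.03 ± 0.11 (adjusted p = 0.83). tacr1b and LOC111946836, described as a neuromedin-K receptor, averaged 0.295 and 0.17 FPKM and were below the filter. While tac1 and tac3 had a log2 winter excess above 1, no tested tachykinin receptor differed by more than 0.23 between the seasons.

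**Figure D4:**
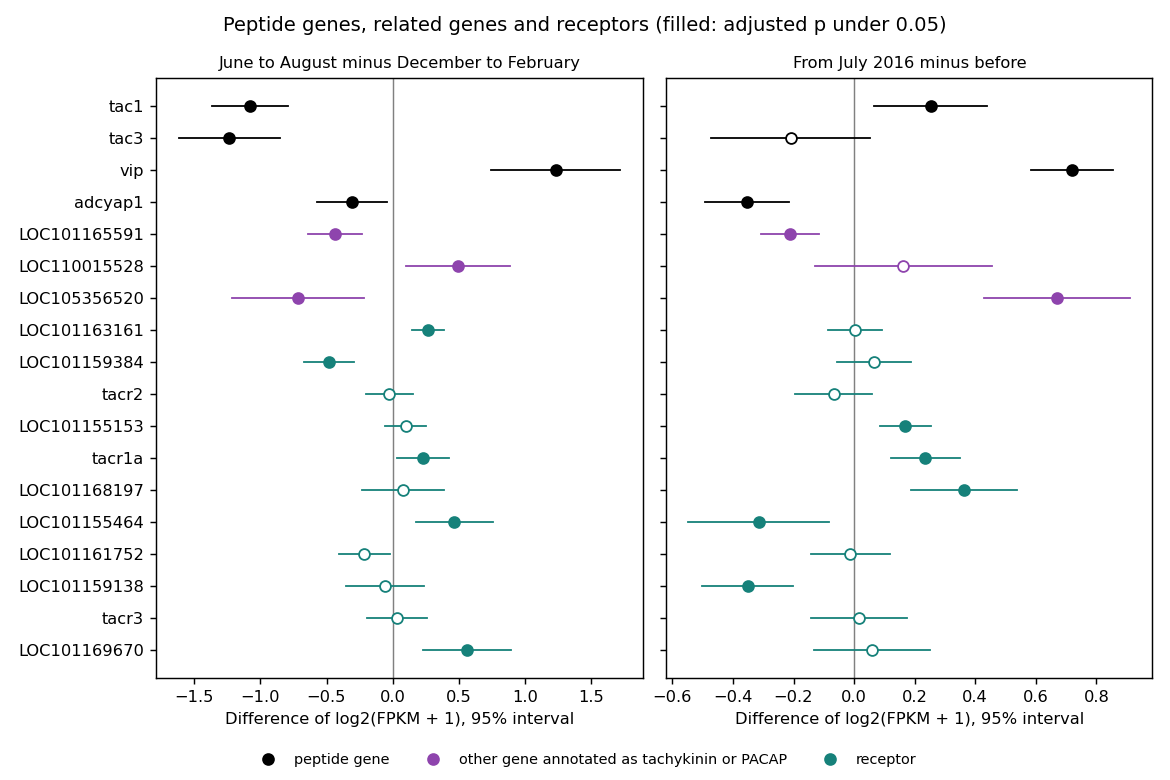
Differences of log2(FPKM + 1) with 95% intervals (horizontal axes) for the 4 peptide genes, 3 other genes assigned to tachykinin or PACAP and 11 receptors (rows), for summer minus winter at left and from July 2016 minus before at right, with filled points where the adjusted p was under 0.05. tac1 and tac3 lie near -1.08 and -1.23 and vip near 1.24 at left, while the receptors lie between -0.48 and 0.56.

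From July 2016, 3 receptors were higher and 2 lower, beside 7.44% and 21.6% of all genes. LOC101168197 rose by 0.36 ± 0.08 (adjusted p = 0.00259 in limma), tacr1a by 0.23 ± 0.05 (adjusted p = 0.00257) and LOC101155153 by 0.17 ± 0.04 (adjusted p = 0.00363). LOC101159138 fell by 0.35 ± 0.07 (adjusted p = 0.001) and LOC101155464 by 0.31 ± 0.11 (adjusted p = 0.038), the last a call that ended after quantile normalization (adjusted p = 0.108) and median ratio scaling (adjusted p = 0.097). The receptors LOC101163161 and LOC101159384 stood at 0.00 ± 0.04 and 0.07 ± 0.06 and did not pass.

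Prohormone processing genes make the mature peptides from the precursors. Of 6 such genes 5 passed in the annual wave, beside 53.4% of all genes, and in summer 4 were lower and 1 higher, beside 23.5% and 31.0% of all genes. cpe, the carboxypeptidase that trims the cut peptide, averaged 357 ± 33.6 FPKM in winter and 207 ± 25.7 in summer (-0.79 ± 0.12, adjusted p = 1.2e-05 in limma) with its peak on 23 January. pcsk2, a proprotein convertase, fell by 0.58 ± 0.08 in summer, scg5, its chaperone, by 0.52 ± 0.13, and pam, the enzyme that amidates peptide ends, by 0.33 ± 0.07. pcsk1, the other neuroendocrine convertase, was higher in summer by 0.31 ± 0.07 (adjusted p = 0.000764) with its peak on 23 July. For cpe, scg5 and pcsk2 every summer date lay below every winter date, beside 14.1% of all genes. For pcsk1 every summer date lay above, beside 16.9% of all genes.

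All 3 peptidases found passed in the annual wave, beside 53.4% of all genes. mme, neprilysin, which degrades substance P, averaged 23.5 ± 2.75 FPKM in winter and 8.25 ± 1.10 FPKM in summer (-1.40 ± 0.18 in log2), with its peak on 31 January and a range of 1.59 ± 0.13 (adjusted p = 2.66e-09 in limma). ece1, an endothelin-converting enzyme that also cuts substance P, was lower in summer by 0.77 ± 0.13, and ace, angiotensin-converting enzyme, was higher by 0.49 ± 0.12 (adjusted p = 0.00131). In August to October against February to April all 3 passed as well, beside 22.0% of all genes, mme at -0.88 ± 0.21, ece1 at -0.50 ± 0.11 and ace at 0.37 ± 0.13.

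Of 13 genes of G protein, phospholipase C and cyclic AMP signalling 8 passed in the annual wave, beside 53.4% of all genes, and in summer 2 were higher and 6 lower, beside 31.0% and 23.5%. The 4 with the smallest adjusted p were plcb2, a phospholipase C (range 0.79 ± 0.11, peak 23 January, adjusted p = 7.16e-06 in limma), adcy7, an adenylyl cyclase (0.89 ± 0.13, peak 24 January), atf4, a transcription factor of the cyclic AMP response element family (0.50 ± 0.09, peak 31 July), and prkar1a, a regulatory subunit of protein kinase A (0.32 ± 0.06, peak 7 August). The list's median summer difference was -0.14, against 0.06 over all genes tested.

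Of 8 partner neuropeptide genes 2 passed in the annual wave, beside 53.4% of all genes. They were penk, the enkephalin precursor (range 0.72 ± 0.16, peak 14 August, adjusted p = 0.00123 in limma), and gnrh3 (0.87 ± 0.26, peak 7 November, adjusted p = 0.022). With a pseudocount of 0.1, or with the date as a random effect, 1 of the 8 passed, penk, and gnrh3 did not. In summer penk was higher by 0.63 ± 0.17 and npy lower by 0.34 ± 0.14 (adjusted p = 0.0389). kiss2, a kisspeptin gene, and pdyn, which encodes the dynorphin precursor, had no annual wave that passed (adjusted p = 0.64 and 0.596). The other kisspeptin gene sought, kiss1, was not found by symbol. From July 2016, kiss2 rose by 0.65 ± 0.14, trh by 0.41 ± 0.08 and pdyn by 0.37 ± 0.08, while gnrh2 and gnrh1 fell by 4.39 ± 0.09 and 0.77 ± 0.18. Thus 5 of these 8 passed at the step, beside 29.1% of all genes.

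The genes most like each peptide gene were listed by Pearson r over the 25 date means, among 8791 tested genes with a symbol, as a description with no test, since dates share season and period. Most like tac1 were mc1r (r = 0.934), matn3 (0.934), glis2 (0.92), mme (0.918) and gpsm1 (0.916). Most like tac3 were thap4 (r = 0.918), rfng (0.907), p3h2 (0.904), afg3l2 (0.899) and llph (0.895). Most like vip were sgcz (r = 0.926), gpr139 (0.902), cnksr2 (0.894), nid2 (0.892) and spop (0.887). Most like adcyap1 were lbhd2 (r = 0.856), snca (0.854), psmd6 (0.841), mycn (0.841) and xylt2 (0.826). Between the peptide genes r was 0.811 for tac1 with tac3, -0.741 for tac3 with vip, -0.616 for adcyap1 with vip, 0.573 for tac3 with adcyap1, -0.524 for tac1 with vip and 0.20 for tac1 with adcyap1.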

How the data were processed

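RNA-seq was made from 50 libraries of the medaka brain block, 2 for each of 25 dates. Per the labels' protocols, poly-T selected RNA was turned into paired-end libraries that keep strand, read for 100 bases. The authors deposited FPKM values per gene and library, and RSEM 1.2.12 and Bowtie2 2.2.5 stand in the submitters' processing notes, without their roles. The build is not given in the sources used here, nor is the annotation, and neither coordinates nor sequences are printed. All 4 peptide genes were found by identifier in RefSeq's gene list for assembly ASM223467v1, which served for names alone. adcyap1 is the sum of 11 transcripts, of which 5 have no RefSeq identifier, tac1 of 2, and tac3 and vip of 1 each. Library depth is unknown, since read totals were not used.

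The date of each library was taken from its title. log2(FPKM + 1) was averaged over the libraries of a date, and the 16493 genes that averaged 1 FPKM or more entered limma 3.58.1 (variance trend on, R 4.3.3). The 7 comparisons were the annual wave, summer against winter, August to October against February to April, both years against each other (month as a block, September 2015 left out), the difference of the annual wave between years, the step from July 2016 beside the annual wave, and the 6-month wave. The seasonal contrasts used 4 blocks of 3 months over all dates. Fits were tested on simulated data with 200 changed genes: at a 2-fold change they recovered between 94% and 99% of them, and 54.5% for the annual wave by year. At a 1.5-fold change the figures were 71% to 91%, and 0% for the annual wave by year. Wrong calls reached 8.97%, for the 6-month wave at 1.5-fold. The simulation thus changed far fewer genes than passed the annual wave in the data (53.4%). Figures were drawn with matplotlib 3.10.9.

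The peptide genes, the related lists and the marker lists were chosen with earlier results of these data known. Of each related list the text names the members most significant in the annual wave (4 at most), all receptors, and for each peptide gene the 5 most like genes with a symbol that is not a LOC number. Members of partner and processing lists beyond these, single markers and the undescribed genes assigned to tachykinin or PACAP were named after their values were seen. Of 4 blood markers none was found by symbol, and the pineal and retinal markers found, aanat2 and rho, averaged 0.265 and 0.03 FPKM. Alternatives covered pseudocount, filter, scaling, variance trend, treatment of the libraries of a date, each library left out, other months and periods, and, added after the data were seen, September 2015 left out. Paralogous receptors may share reads, which were not separated beyond the deposited values.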

Additional observations from a re-analysis of the deposited data

How the results depend on the processing

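The summer differences of tac1, tac3 and vip, and the second-year and July 2016 differences of vip, kept direction and call in every alternative run. So did the July 2016 fall of adcyap1 and the August to October difference of tac1. The annual waves of tac1, tac3 and vip and the 6-month wave of tac1 kept their call in every run. For waves only the call was compared, not the peak day. The July 2016 rise of tac1 lost its call with no filter (0.25, adjusted p = 0.0515). The summer fall of adcyap1 lost its call with no filter (-0.31, adjusted p = 0.0577), for July to September set against January to March (-0.23, adjusted p = 0.132), with a step term from July 2016 (-0.19, adjusted p = 0.0757) and in the dates from July 2016 only (-0.19, adjusted p = 0.242), and ran from -0.33 to -0.28 over the fits without 1 library. Genes with an annual wave numbered 8800, and 5299 in the 10 dates to June 2016. For August to October against February to April, 1 peptide gene passed. It was 2 after quantile normalization, median ratio scaling, a step term from July 2016, in the dates from July 2016 only and without September 2015, and 1 to 2 over the fits without 1 library. The adcyap1 difference there turned positive with the step term (0.0275, adjusted p = 0.849). For the second year against the first, 1 peptide gene passed, and 2 after median ratio scaling or when dates entered as a random effect. The difference of the annual wave between years was called for 5 genes of all, 0 with no filter, 3 with a mean of at least 5 FPKM, 8 with no variance trend, 453 with the date as a random effect and 0 to 28 over the fits without 1 library, with vip at an adjusted p of 0.0071 to 0.2 over the alternatives.

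Treating libraries as separate samples raises the number of samples without new dates. It called 6951 genes and 3 peptide genes for August to October (3 also with the date as a random effect), 5984 genes and 4 peptide genes between years, 3235 genes and 1 peptide gene (vip) for the wave by year, 7348 genes at July 2016, and 4602 genes and 2 peptide genes for the 6-month wave. With the replicate number as a block as well, the counts were 6940 and 3 for August to October, 5952 and 4 between years, 3201 and 1 for the wave by year and 4555 genes for the 6-month wave, and tac3 was lower from July 2016 (-0.27, adjusted p = 0.0333). The replicate numbers share only a number, since differences between replicates correlated between dates with a median r of 0.01 (-0.11 to 0.14). Library depth is unknown, so counting error could not be separated from the spread between dates. The cause of these changes was not tested.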
